A study of Mus musculus with 17 samples.

Results

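The ID proteins and E proteins were described here in sorted mouse hematopoietic stem cells (HSCs) through 6 genes, the ID genes Id1, Id2 and Id3 and the E protein genes Tcf3, Tcf4 and Tcf12. All probe sets that the platform annotation gives to a single one of these symbols were taken, which gave 19 of 45101 probe sets and 6 of 18193 genes. Id1 and Id3 had 1 probe set each, Id2 and Tcf3 had 3 each, Tcf12 had 5 and Tcf4 had 6. The Entrez identifiers of all 19 matched the current RefSeq symbols, so Tcf3 stands for the gene of the E2A proteins and Tcf4 for that of E2-2, and neither stands for the TCF genes of the WNT pathway that once shared these names. All 19 lay above the floor of the deposited values on at least 1 array and were tested.

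E proteins are basic helix-loop-helix transcription factors that bind the E-box as dimers, either with each other or with a tissue-restricted partner such as TAL1. ID proteins have the helix-loop-helix that makes dimers but lack the basic region that touches DNA, so an E protein held by an ID protein does not bind its sites. In blood formation the balance of both families is known for setting lymphoid against myeloid and erythroid fate and for its part in the maintenance of stem cells, and ID genes are well known targets of BMP and TGF-beta signals.

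The arrays measured transcripts of HSCs in 5 groups, 3 from fetal liver at E15.5, 3 control and 3 knockout (KO) at day 7, and 4 control and 4 KO at day 21. All 4 adult groups, controls included, had been injected with pIpC, an RNA mimic of viral infection that raises interferon and with it any Cre placed under an interferon-responsive promoter, and days were counted from that injection. The sort kept CD150+ CD48- cells among those without lineage markers that carry Sca-1 and c-Kit, with low Mac-1 as a further criterion in fetal liver. The titles call the KO groups C/EBPa KO, whereas their genotype field and the design text name Pu.1 knock-in (PU.1ki/ki), so the labels conflict. The genotype field of the controls reads wild type, and the fetal arrays carry no genotype and no pIpC in the labels. The sources used here name neither a Cre nor its promoter, and do not say whether replicates were separate animals or pools. P-values therefore measure only the spread among arrays, which may be technical. Values are intensities on a linear scale with a floor of 16, and differences are in log2 units, so that 1 is a doubling.

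Cebpa, the gene for C/EBPa, ran from 20.7 to 39.8 on the 7 arrays titled KO and from 115 to 532.5 on the 7 control arrays. At day 7 the log2 difference of −2.73 had a limma adjusted p of 0.248, and at day 21 that of −2.82 had one of 0.0743, so neither was called although the groups did not overlap. Low Cebpa was not particular to the KO label. In fetal liver it ran from 30.2 to 81.0, also below all adult controls (−2.08, limma adjusted p = 0.0284). That call held in 19 of 24 alternatives. The arrays themselves differed in several ways. Between 20.4% and 25.2% of probe sets per array lay at the floor, and the 3'-to-5' ratio of control transcripts, a measure of RNA quality, ran from −0.40 to 0.52 in log2 units, with control day 21 at −0.40 to 0.20 and KO day 21 at 0.19 to 0.30. Of the stem cell markers Kit, Slamf1, Mecom, Hlf, Meis1, Procr, Gata2 and Tek, none lay at the floor on all arrays of any group. Their sum was 5129 to 8027 in fetal liver against 8262 to 11066 in adult controls, with 6 of 8 genes lower. In KO it was 7046 to 8261 at day 7 against 9771 to 11066 in control, with 5 of 8 lower. At day 21 it was 5929 to 9482 in KO against 8262 to 10676 in control, with 8 of 8 lower and a median log2 difference of −0.30. Fetal liver arrays had more signal of endothelial markers (summed intensity of 10 genes 2519 to 13465, against 843 to 1286 in adult controls) and of hepatocyte markers (8 of 10 genes with a probe set, 846 to 11682 against 426 to 1184). Erythroid markers (10 of 12) summed to 11782 to 15988 in fetal liver against 3731 to 9270 in adult controls, and myeloid markers (11 of 12) to 5920 to 30805 against 2753 to 6278. Between control day 21 and KO day 21, megakaryocyte markers summed to 1539 to 9640 and 5113 to 8811, with 8 of 9 genes higher in KO and a median log2 difference of 1.67, and Pf4 went from 133 to 658 in control to 1540 to 3332 in KO. Erythroid markers summed to 4419 to 9270 and 7847 to 16280, with 10 of 10 higher and a median of 1.49. The sum of T and NK markers was 316 to 481 and 578 to 1102, which came from Nkg7 (84.8 to 222 and 343 to 830.5), since the list had 5 of 9 genes higher, 4 lower and a median of 0.03. In such bulk samples, fewer cells of a type and less RNA per cell cannot be told apart.

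Promoters of Id2, Id3, Tcf3 and Tcf12 are shown for their E-boxes and C/EBP motifs, since E proteins bind the one and C/EBPa the other. Each line gives 250 bases up to the transcription start from RefSeq (GRCm38.p6), 5′ to 3′ on the strand of the gene. Capitals mark a match to the E-box CANNTG or to TTNNGNAA, a loose form of the C/EBP motif, searched on both strands.
Id2, chr12:25096093-25096342, - strand: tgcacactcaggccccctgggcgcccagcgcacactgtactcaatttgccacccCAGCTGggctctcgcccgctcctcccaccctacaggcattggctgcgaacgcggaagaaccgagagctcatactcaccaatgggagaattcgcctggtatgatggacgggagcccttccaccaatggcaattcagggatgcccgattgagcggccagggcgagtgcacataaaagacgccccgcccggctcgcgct
Id3, chr4:136143572-136143821, + strand: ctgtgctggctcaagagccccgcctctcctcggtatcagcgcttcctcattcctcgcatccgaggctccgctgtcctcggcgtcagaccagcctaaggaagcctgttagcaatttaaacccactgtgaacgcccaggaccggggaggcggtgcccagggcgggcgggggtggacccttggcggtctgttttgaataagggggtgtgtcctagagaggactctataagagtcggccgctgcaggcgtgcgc
Tcf3, chr10:80433636-80433885, - strand: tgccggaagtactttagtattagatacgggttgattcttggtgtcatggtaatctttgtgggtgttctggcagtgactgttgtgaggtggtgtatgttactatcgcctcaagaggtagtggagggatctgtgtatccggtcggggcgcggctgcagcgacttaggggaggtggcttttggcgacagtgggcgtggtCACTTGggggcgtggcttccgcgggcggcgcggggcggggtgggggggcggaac
Tcf12, outer start, chr9:72111820-72112069, - strand: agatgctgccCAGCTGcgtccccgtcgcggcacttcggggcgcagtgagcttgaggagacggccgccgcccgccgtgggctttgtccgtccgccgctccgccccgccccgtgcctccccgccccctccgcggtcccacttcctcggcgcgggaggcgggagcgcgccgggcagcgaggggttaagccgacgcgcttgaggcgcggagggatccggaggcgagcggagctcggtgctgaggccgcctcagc
Tcf12, internal start, chr9:71896097-71896346, - strand: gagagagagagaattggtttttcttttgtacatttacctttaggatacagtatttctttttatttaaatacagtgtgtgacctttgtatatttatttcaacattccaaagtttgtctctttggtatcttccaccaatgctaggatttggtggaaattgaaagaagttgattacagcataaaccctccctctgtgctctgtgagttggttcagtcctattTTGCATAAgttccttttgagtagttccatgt
The Id3 window held neither motif, and Id2 had the E-box CAGCTG 196 bases before the start. Tcf3 had the E-box CACTTG 54 bases before the start, and the outer Tcf12 start had CAGCTG 240 bases before it. The internal Tcf12 start had no E-box and a C/EBP match, TTGCATAA, 31 bases before it, and its base composition was 34.8% G and C against 76.8% at the outer start. A further Tcf12 start, not shown, had the E-box CAAGTG at 149 bases. Over 32851 RefSeq promoters of the same length, 66.2% held an E-box and 36.8% a C/EBP match. Id1 and Tcf4 promoters were not used here.

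Of the 19 probe sets, 1 passed the test in 1 of 5 comparisons, a Tcf12 probe set that was higher in fetal liver than in adult control. KO against control asked what loss of the gene named in the titles does to adult HSCs. At day 7, 0 of 19 were called by limma and 0 had an unadjusted p under 0.05, where 0.0025% and 6.69% of the 40023 probe sets tested did. At day 21, 0 of 19 were called and 4 had an unadjusted p under 0.05, against 0.03% and 9.35% of all. Fetal liver against adult control asked how the fetal state differs from the adult one. Here 1 of 19 was called, against 3.07% of all, and 6 had an unadjusted p under 0.05, against 15.7%. Control day 21 against control day 7, the time after pIpC alone, gave 0 called and 4 with an unadjusted p under 0.05, against 0.05% and 7.53% of all. When the KO effect of day 7 was subtracted from that of day 21, the counts were 0 and 3, against 0.0025% and 4.71%. The arrays of both groups did not overlap for 3 of 19 members in KO day 7, 2 in KO day 21, 3 in fetal liver and 2 between the controls, against 13%, 5.16%, 5.58% and 5.69% of all probe sets. The median log2 difference of the members was 8e-04 at day 7, 0.06 at day 21 and −0.10 in fetal liver, beside 0, 0.0074 and −0.0032 over all probe sets. On simulated data the fit called 4%, 4% and 2% of doublings and 38%, 38% and 34% of 4-fold changes in these 3 comparisons. Only a small share of the simulated probe sets was changed, smaller than the 3.07% called in fetal liver, and that share affects the adjustment. A doubling was thus rarely called in that setting, and the simulated shares need not hold for fetal liver.

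**Figure D1:**
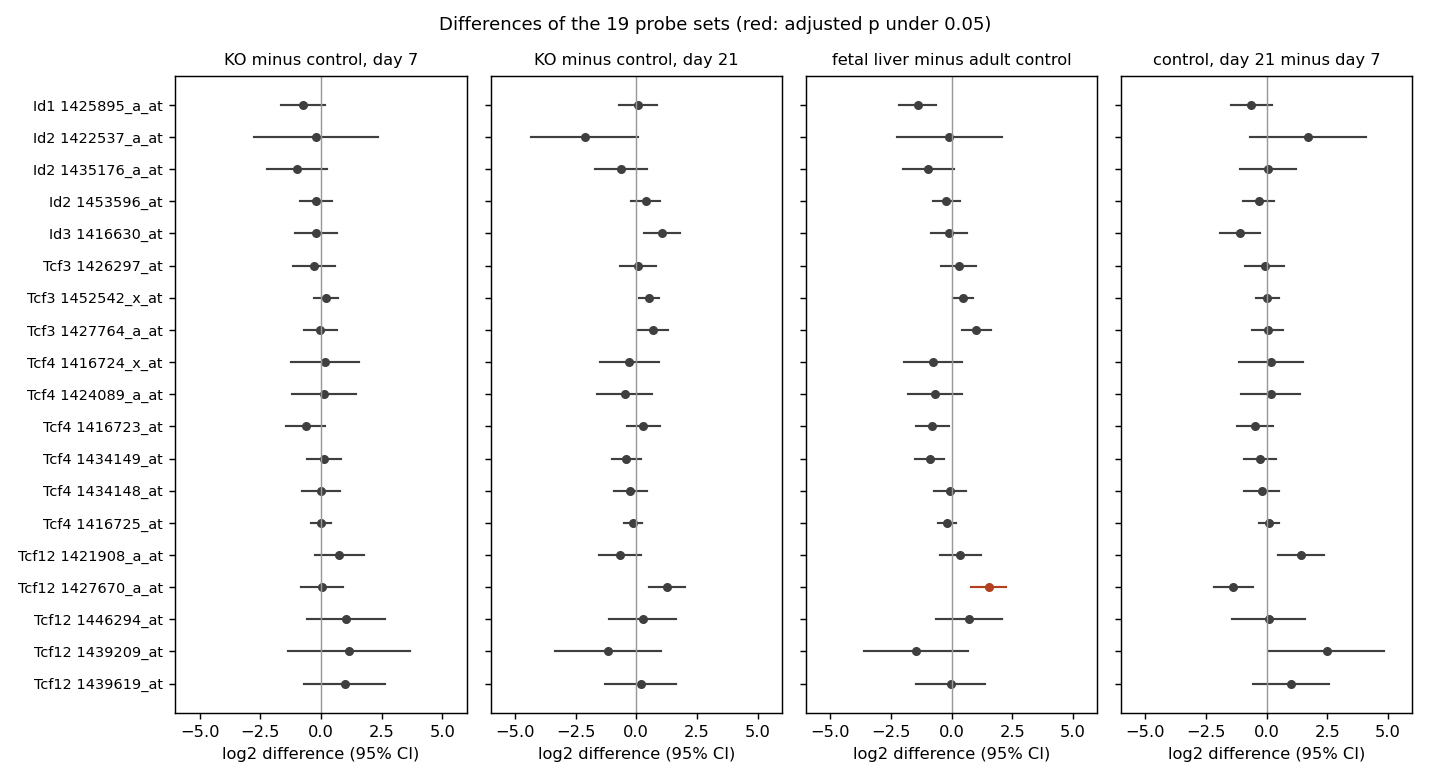
Log2 difference (x axis) of each of the 19 member probe sets (rows) with its 95% confidence interval from limma, in KO against control at day 7 and day 21, fetal liver against adult control and control day 21 against day 7. Red marks an adjusted p under 0.05, which in these 4 panels only Tcf12 1427670_a_at in fetal liver has, at 1.52.

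Id1 encodes an ID protein that BMP signals induce. On its single probe set, 1425895_a_at, fetal liver arrays stood at 96.7, 81.3 and 178. Control arrays stood at 231, 394 and 541 at day 7 and at 216, 242.5, 145 and 410.5 at day 21. KO arrays stood at 251, 156 and 272 at day 7 and at 191, 349, 206 and 271 at day 21. Fetal liver had the lowest group mean and control day 7 the highest, and a single control array, replicate 3 of day 21 at 145, kept fetal liver and adult control from standing apart. The fetal difference was −1.40 (SE 0.36, 95% interval −2.17 to −0.62, adjusted p = 0.0536), just above the threshold. It was called in 9 of 24 alternative settings, with adjusted p between 0.0202 and 0.207, among them without control day 21 replicate 3 (−1.51, adjusted p = 0.0329), and stayed negative in all 24. Endothelial, hepatocyte, erythroid and myeloid markers differed between the same groups, as given above, and their part in this value was not tested. KO against control gave −0.74 (SE 0.42, interval −1.65 to 0.18) at day 7 and 0.06 (SE 0.37, interval −0.73 to 0.85) at day 21, both with overlapping groups.

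Id2, known for its need in NK and innate lymphoid cells, was the most uneven member from array to array. Its brighter probe set, 1422537_a_at, read 146.5, 828, 40.8 and 1626 in control day 21 and 69.0, 48.7, 89.6 and 75.3 in KO day 21. It read 44.2, 67.3 and 266.5 in control day 7, 38.6, 111.5 and 118 in KO day 7, and 53.5, 457 and 158 in fetal liver. The control day 21 arrays thus spanned nearly the whole range seen, with 3 above every KO day 21 array and 1 below all of them. The log2 difference at day 21 was −2.12 (SE 1.02, interval −4.32 to 0.09, adjusted p = 0.554), and at day 7 −0.21 (SE 1.18). The day 21 value was −1.31 without control day 21 replicate 4 and −3.88 with the 3'-to-5' ratio as a covariate (adjusted p = 0.321), so its size depends on both. A second probe set, 1435176_a_at, read 101, 64.2, 84.1 and 240 in control day 21, without the high reading of replicate 2, and 54.6, 74.5, 58.5 and 95.6 in KO day 21. The log2 values of both probe sets had a Pearson r of 0.378 over the 17 arrays. The third, 1453596_at, was at the floor on 12 of 17 arrays and reached 34.7 at most.

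Id3 encodes an ID protein with known roles in lymphocyte development. Its probe set 1416630_at read 349, 219, 147 and 204 in control day 21 and 467, 394, 455 and 512 in KO day 21, so every KO array lay above every control array. In control day 7 it read 867, 321 and 371, in KO day 7 it read 383, 475 and 365, and in fetal liver 175, 346 and 447. These 3 groups overlapped one another. The log2 difference at day 21 was 1.05 (SE 0.35, interval 0.30 to 1.81), with an unadjusted p of 0.00945 and an adjusted p of 0.343, so Id3 was not called. At day 7 it was −0.21 (SE 0.40, interval −1.08 to 0.65), and the difference between both days was 1.27 (SE 0.53, unadjusted p = 0.0327, adjusted p = 1). The control groups enter that value too, since control day 21 stood at −1.10 (SE 0.38, adjusted p = 0.517) against control day 7, and at −0.66 without control day 7 replicate 1, the array at 867. Both comparisons share the control day 21 arrays. Megakaryocyte and erythroid markers stood higher in KO day 21 than in control day 21 on most genes. The erythroid sums overlapped, and the megakaryocyte sums did so only through control day 21 replicate 1, with its Gp9 reading of 7224. The part of both lists in the Id3 value was not tested. With the 3'-to-5' ratio as a covariate it was 0.69 (SE 0.39, adjusted p = 0.731).

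Id4 is the remaining gene of the ID family and stands outside the 6 members. Its brightest probe set, 1423260_at, read 1594, 788 and 650 in control day 7 and 52.6, 242 and 239 in KO day 7. It read 372, 816, 1389 and 409 in control day 21, 597, 62.6, 385 and 333 in KO day 21, and 90.6, 151 and 161 in fetal liver. The day 7 groups did not overlap, nor did fetal liver and adult control, whereas the day 21 groups did. The log2 difference was −2.69 (SE 0.81, adjusted p = 0.516) in KO day 7, −1.29 (SE 0.70, 0.618) in KO day 21 and −2.57 (SE 0.69, 0.0629) in fetal liver, none of them called. The other Id4 probe sets lay near the floor on most arrays and gave 1.37 (SE 0.85) and −0.12 (SE 0.54) at day 7.

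**Figure D2:**
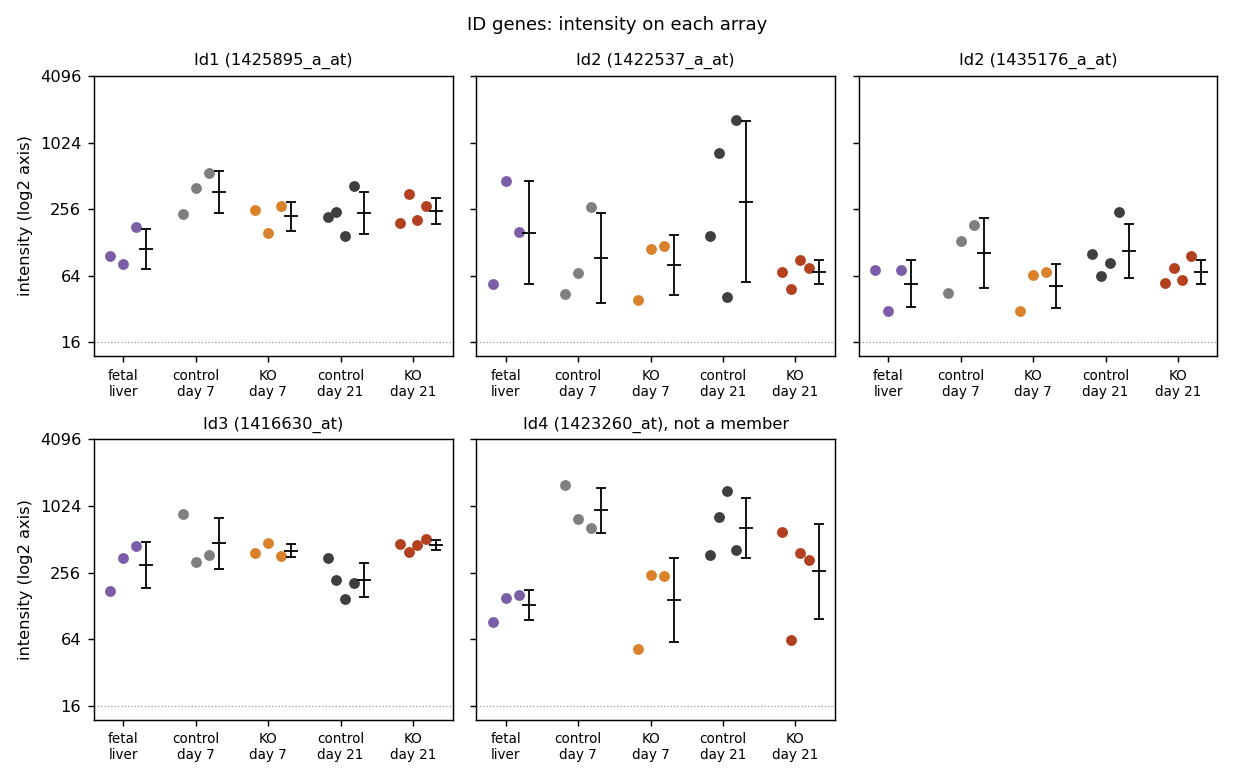
Intensity on each array (y axis, log2 scale, floor of 16 dotted) of probe sets of Id1, Id2, Id3 and Id4 in the 5 groups; points are arrays, and the bars beside them give the mean and SD of the log2 values. Id3 at day 21 is the panel in which all 4 KO arrays lie above all 4 controls, and Id2 1422537_a_at shows control day 21 arrays between 40.8 and 1626.

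Tcf3 encodes E12 and E47, the E2A proteins that B cell development requires. Its brightest probe set, 1426297_at, had overlapping ranges in all 5 groups, from 304.5 to 1145, with differences of −0.28 (SE 0.40) in KO day 7, 0.07 (SE 0.35) in KO day 21 and 0.29 (SE 0.34) in fetal liver. The other probe sets gave another picture. On 1427764_a_at fetal liver read 325, 456 and 248, control day 7 read 204, 123 and 166.5, and control day 21 read 150.5, 141, 155 and 223.5. KO arrays read 108, 250.5 and 147.5 at day 7 and 251, 321, 201.5 and 304 at day 21. All 3 fetal arrays lay above all 7 adult controls, and 3 of 4 KO day 21 arrays lay above every control day 21 array. The fetal difference was 1.03 (SE 0.27, adjusted p = 0.0622) and the day 21 difference 0.69 (SE 0.28, adjusted p = 0.467), neither of them called.

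On 1452542_x_at, whose suffix marks probes that may match other transcripts, fetal liver read 300.5, 319 and 340 and control day 21 read 234, 212, 245 and 227. KO day 21 read 305, 451, 269 and 322.5, control day 7 read 280.5, 180 and 225, and KO day 7 read 237, 358 and 207. Here too fetal liver stood above all adult controls and KO day 21 above control day 21 without overlap. The differences were 0.49 (SE 0.19, adjusted p = 0.21) and 0.53 (SE 0.20, interval 0.11 to 0.95, adjusted p = 0.407). Across the 17 arrays the log2 values of these 2 probe sets had an r of 0.791, and those of 1426297_at an r of 0.21 and 0.484 with them. Fetal liver and KO day 21 were each set against controls that include the day 21 arrays, so their values are given side by side only.

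Tcf4 encodes E2-2, the E protein that plasmacytoid dendritic cells depend on. Its brightest probe set, 1416724_x_at, read 647, 908, 3479 and 839 in control day 21 and 834, 761, 993 and 1256 in KO day 21. It read 683, 1398 and 1107 in control day 7, 1360, 1005 and 1084 in KO day 7, and 214, 913 and 1363 in fetal liver. Most arrays lay close together, with replicate 3 of control day 21 far above and replicate 1 of fetal liver far below the rest. The probe set 1424089_a_at showed the same pair of arrays at 2085 and 152, and the log2 values of both had an r of 0.933. KO against control gave 0.16 (SE 0.65) at day 7 and −0.28 (SE 0.57) at day 21, the latter turning to 0.26 without control day 21 replicate 3.

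All 6 Tcf4 probe sets had lower means in fetal liver than in adult control, with none called. The differences were −0.75 (SE 0.55) on 1416724_x_at and −0.68 (SE 0.52) on 1424089_a_at, both with the low fetal replicate 1. Without that array the value on 1416724_x_at turned to 0.047. On 1434148_at and 1416725_at the differences were −0.08 (SE 0.30) and −0.19 (SE 0.17). On 1434149_at fetal liver read 111, 109 and 163, control day 7 read 214, 368 and 220, and control day 21 read 320, 287.5, 157 and 144. The fetal arrays overlapped the controls only through the lowest 2 of day 21, and the difference was −0.91 (SE 0.27, unadjusted p = 0.00503, adjusted p = 0.0954). On 1416723_at it was −0.80 (SE 0.32, adjusted p = 0.223). That probe set also read 861, 713.5 and 721 in control day 7 and 547, 367.5 and 587 in KO day 7, with no overlap and a difference of −0.64 (SE 0.37, adjusted p = 0.834). At day 21 the same probe set stood at 0.30 (SE 0.32). Of the remaining probe sets, 1434148_at ran from 57.7 to 227 and 1416725_at from 18.01 to 28.96, close to the floor.

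**Figure D3:**
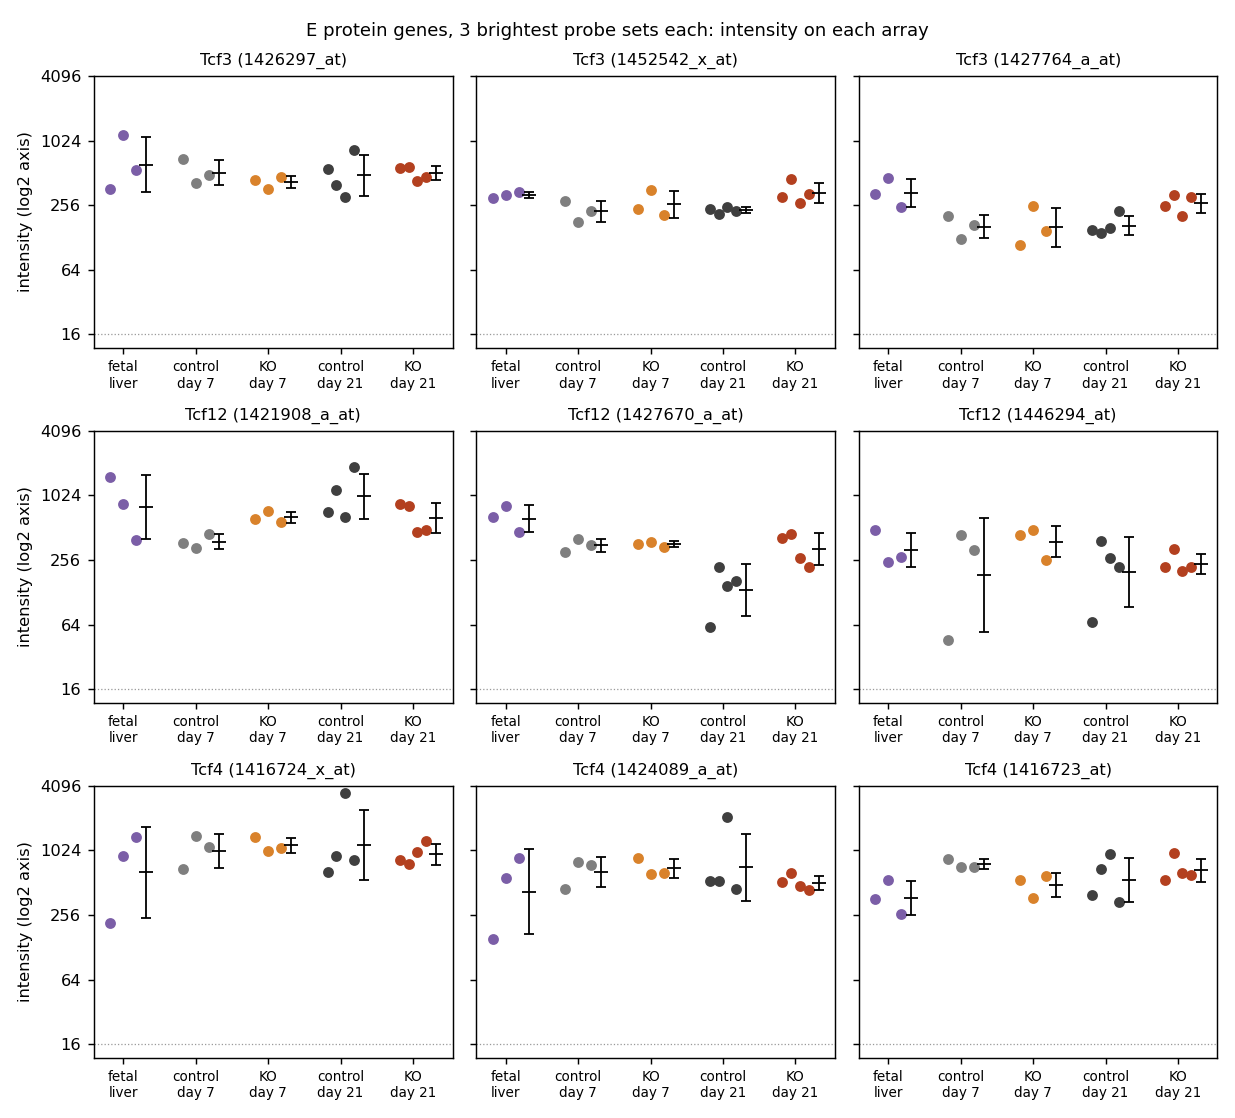
Intensity on each array (y axis, log2 scale) of probe sets of the E protein genes Tcf3, Tcf4 and Tcf12 in the 5 groups; points are arrays, and the bars beside them give the mean and SD of the log2 values. On Tcf12 1427670_a_at fetal liver lies at 463 to 813, above all adult controls at 61.0 to 399.

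Tcf12 encodes HEB, the E protein best known from T cell development. On the probe set 1427670_a_at fetal liver arrays read 643, 813 and 463. Control arrays read 306.5, 399 and 351 at day 7 and 61.0, 221, 147 and 163 at day 21. All 3 fetal arrays lay above all 7 controls, and Tcf12 on this probe set rose by 1.52 (SE 0.34, interval 0.79 to 2.25, limma adjusted p = 0.0271). The difference was 2.22 (adjusted p = 0.0064) against control day 21 alone and 0.83 (adjusted p = 0.37) against control day 7 alone. The call held in 16 of 23 alternatives. Besides control day 7 alone, it was lost without fetal replicate 1 (1.501, adjusted p = 0.0767), fetal replicate 2 (1.33, 0.128) or control day 7 replicate 1 (1.48, 0.054). It was also lost with the 3'-to-5' ratio as a covariate (1.44, 0.0586), with only the arrays compared (1.52, 0.131), and without control day 21 replicate 3 and control day 7 replicate 1 together (1.498, 0.0636). The endothelial, hepatocyte, erythroid and myeloid markers of fetal liver are given above, and their part in this value was not tested.

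The same probe set read 363, 380 and 335 in KO day 7, within the range of control day 7, and 414.5, 451, 270 and 219 in KO day 21. Of the KO day 21 arrays 3 lay above every control day 21 array, and the fourth, at 219, lay just under the highest of them at 221. The difference was 1.27 (SE 0.35, interval 0.53 to 2.02, unadjusted p = 0.00265, adjusted p = 0.263), the smallest p of any member in a KO comparison, and not called. Control day 21 stood at −1.39 (SE 0.37, adjusted p = 0.352) against control day 7, with no overlap.

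The brightest Tcf12 probe set, 1421908_a_at, went the other way between the controls. It read 371, 329 and 449 in control day 7 and 712, 1161, 647.5 and 1884 in control day 21, with no overlap and a difference of 1.40 (SE 0.44, adjusted p = 0.452). In KO it read 619, 727.5 and 578 at day 7 and 858, 823, 468 and 483 at day 21, and in fetal liver 1535, 847 and 390. KO day 7 lay above control day 7 without overlap (0.75, SE 0.47, adjusted p = 0.844), whereas KO day 21 overlapped control day 21 (−0.67, SE 0.41, adjusted p = 0.667). In fetal liver the difference was 0.37 (SE 0.40), so the rise on 1427670_a_at was not matched by a call on this probe set. The r of both over the 17 arrays was −0.0486.

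The log2 ratio of 1421908_a_at to 1427670_a_at on each array was taken after these values had been seen. It has no meaning as a level, and only its differences between arrays are read. It was 3.55, 2.39, 2.14 and 3.53 in control day 21, against 0.28, −0.28 and 0.35 in control day 7. In KO it was 0.77, 0.94 and 0.79 at day 7 and 1.05, 0.87, 0.79 and 1.14 at day 21, and in fetal liver 1.26, 0.06 and −0.25. Control day 21 thus stood above each of the other 13 arrays. KO day 21 differed from control day 21 by −1.94 (exact two-sided permutation p = 0.0286, the smallest that 4 against 4 arrays allow), and control day 21 from control day 7 by 2.79 (exact permutation p = 0.0571, the smallest for 4 against 3). Over the 124 such tests on 31 pairs of probe sets of 1 gene, the Benjamini-Hochberg value of both was 0.653. With so few arrays that value could not have come under 0.05, so it decides nothing. The ratio was picked after seeing the values, so its permutation p-values are a description only. With the 3'-to-5' ratio of control transcripts as a covariate, KO day 21 against control day 21 was 1.11 (SE 0.42, adjusted p = 0.568) on 1427670_a_at and −0.76 (SE 0.51, adjusted p = 0.787) on 1421908_a_at.

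**Figure D4:**
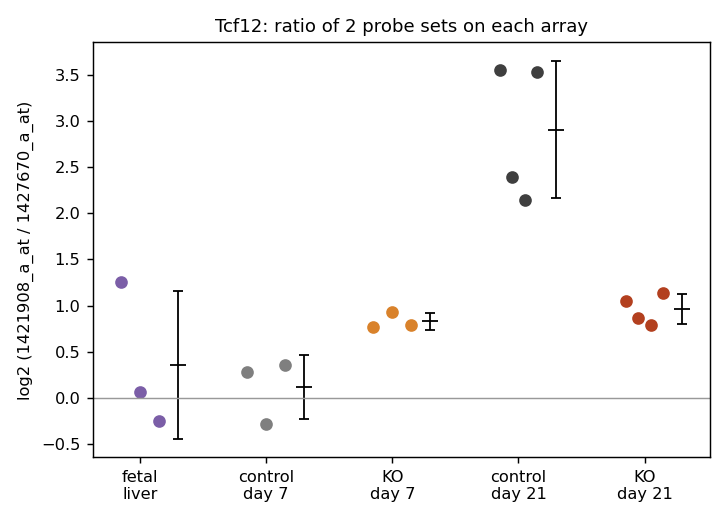
Log2 ratio of Tcf12 probe sets 1421908_a_at and 1427670_a_at on each array (y axis) in the 5 groups (x axis); points are arrays, and the bars beside them give the mean and SD. The 4 control day 21 arrays lie between 2.14 and 3.55 and all other arrays between −0.28 and 1.26.

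Of the other Tcf12 probe sets, 1446294_at had no unadjusted p under 0.05, with control day 7 arrays at 46.0, 441 and 320. On 1439209_at, control day 21 read 70.1, 27.7, 618 and 200, and control day 7 had 2 of 3 arrays at the floor and 1 at 45.2. The difference between these controls was 2.46 (SE 1.09, unadjusted p = 0.0414, adjusted p = 0.653), in the direction of 1421908_a_at, and 1.69 without control day 21 replicate 3. On 1439619_at, all control day 7 arrays lay at the floor and KO day 7 read 30.75, 31.78 and 32.05, a lower bound of 0.98 (SE 0.77) for the difference, not called.

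Levels of different genes cannot be set against each other on arrays, but the order of the groups within a gene can. On the brightest probe set of each gene, control day 7 had the highest mean for Id1 and Id3, control day 21 for Id2, Tcf4 and Tcf12, and fetal liver for Tcf3. Fetal liver had the lowest mean for Id1 and Tcf4. For Tcf4 this place rested on fetal replicate 1, without which the difference from adult control went from −0.75 to 0.047. Neighbouring groups in these orders overlapped in their arrays, except KO day 21 and control day 7 at the low end of Tcf12. When each array of the highest group was left out in turn, 3 of the highest places changed. Arrays of the other groups were not left out here, so further places may also rest on single arrays. For Tcf12 the next group, fetal liver, ran from 390 to 1535. Without control day 7 replicate 1 the Id3 mean fell from 8.87 to 8.43 and to the third place, without fetal replicate 2 that of Tcf3 from 9.25 to 8.80 and to the fourth, and without control day 21 replicate 3 that of Tcf4 from 10.16 to 9.63 and to the fourth.

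As a description over the 17 arrays, the log2 values of Id3 and Tcf12 on their brightest probe sets had an r of −0.618 (−0.389 with the group means removed) and those of Tcf4 and Tcf12 one of −0.477 (−0.683). Positive values of like size were 0.472 (0.333) for Id2 and Tcf12 and 0.462 (0.545) for Id2 and Tcf3, and the other 11 pairs lay between −0.292 and 0.301. The values with Tcf12 depend on its probe set. On 1427670_a_at they were 0.177 (−0.482) for Id3, −0.236 (0.0337) for Tcf4 and −0.149 (0.294) for Id2. The arrays share groups and array quality, so these values carry no p. Among 9894 genes brighter than the median probe set, the pattern most like that of Id3 was of Pdpk1 (r = 0.868), Tmbim6 (0.851) and Trim65 (0.807). For Id1 it was Smim14 (0.861), Nr1d2 (0.838) and Dnajb1 (0.824), and for Id2 Fam20b (0.809), Slc9a3r2 (0.774) and Mdh1 (0.764). For Tcf3 it was Tcea3 (0.829), Gspt2 (0.828) and Wdr19 (0.818). Tcf4 had Hars2 (0.857), Pde4d (0.847) and Mndal (0.843), and Tcf12 had Vill (0.765), A630001G21Rik (0.751) and Lap3 (0.744). With the group means removed these values lay between 0.674 and 0.888, but the genes were picked as the highest of many on the same arrays, so high values follow from the choice.

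The wider pathway was read from lists of partners, co-regulators, targets and upstream signals, each gene by its brightest probe set. In fetal liver against adult control 3.32% of 16784 genes were called. Of 10 tissue-restricted partners of E proteins tested, such as Tal1 and Lyl1, limma called 0 in any of the 5 comparisons, with 1 at an unadjusted p under 0.05 in each KO comparison and 0 in the other 3. Of 13 co-regulators found in complexes with E proteins, Gata2 fell by 1.59 (SE 0.19, adjusted p = 3.1e-04) and Lmo2 fell by 0.74 (SE 0.16, adjusted p = 0.0254) in fetal liver, with a list median of 0.22. Gata2 is a transcription factor that stem cells require, and LMO2 bridges TAL1 and GATA factors. The Lmo2 call was lost in 6 of 24 alternatives, with adjusted p up to 0.121 (−0.59, against control day 21 alone). Among them were those without fetal replicate 2 (−0.68, 0.104) or fetal replicate 3 (−0.63, 0.11).

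Of 18 lymphoid target genes tested, Cdkn1a, which encodes the cell cycle inhibitor p21, fell by 3.43 (SE 0.29, adjusted p = 1.53e-05) in fetal liver. Socs3, an inhibitor of cytokine signalling, fell by 5.25 (SE 0.60, adjusted p = 2.39e-04), with 1 fetal array at the floor. The list median was −0.01, and neither gene is specific to lymphoid cells. Of 29 genes of BMP and TGF-beta signalling, the ligand Bmp2 rose by at least 2.62 (adjusted p = 1.68e-05), a lower bound since 5 of 7 control arrays lay at the floor. The inhibitory SMAD gene Smad7 fell by 2.36 (SE 0.31, adjusted p = 6.66e-04), and Bambi, a decoy receptor, fell by 2.87 (SE 0.54, adjusted p = 0.00982). The Bambi call was lost in 2 of 24, without fetal replicate 2 (−2.20, adjusted p = 0.0548) and with only the arrays compared (−2.87, 0.0621). The list had 19 genes higher and 10 lower, a median of 0.08 beside 0.02 over all genes, and fetal Id1 stood at −1.40 as given above. The calls of Gata2, Cdkn1a, Socs3 and Smad7 held in all 24 alternatives and that of Bmp2 in all 23 run. The part of these other cell markers in the list values was not tested.

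In KO against control, 0 genes of these lists were called at either day, where 0 of all 16784 genes were called at day 7 and 0.0238% at day 21. At an unadjusted p under 0.05, limma gave 5 of 29 BMP and TGF-beta genes at day 7 and 3 at day 21, 3 and 0 of 13 co-regulators, and 1 and 2 of 18 targets, where 6.67% and 10% of all genes had such a p. At day 7 this list had 6 genes higher and 22 lower, with a median of −0.15 beside 0 over all genes, and Bmp4 had a value of −2.33 (SE 0.66, adjusted p = 0.481). At day 21 it had 12 higher and 17 lower, with a median of −0.07. Cdkn1a stood at −1.87 (SE 0.34, adjusted p = 0.152) at day 7.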

How the data were processed

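The authors deposited linear intensities, 1 per probe set and array. The submitters' processing notes list RMA alone and give no role or version for it, and the sources used here do not state the scaling. Per the labels' protocols, total RNA was amplified and biotinylated before hybridization. The lowest value was 16 on every array. Log2 was taken with no pseudocount, which puts the floor at 4. Arrays give no count depth, and their number limits the precision.

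Members were named through the platform annotation and checked by Entrez identifier against RefSeq. The 40023 probe sets above the floor on at least 1 array entered lmFit and eBayes of limma 3.58.1 (R 4.3.3), with a mean for each of the 5 groups and a common spread over the 17 arrays (12 residual and 1.41 prior degrees of freedom). A call needed an adjusted p under 0.05 (Benjamini-Hochberg, over all of them), and the fit was tested on simulated data. The members and lists were chosen with earlier results of these data known. Every member probe set is given; a gene is represented by its probe set with the highest mean. Of each list, called genes were named, at most 3 per comparison, or where none was called that with the smallest p. Genes of like pattern are the 3 with the highest Pearson r. No 2 arrays were identical, and the highest correlation between arrays was 0.952. Same-numbered arrays of different groups deviated together little at most (correlations between −0.03 and 0.08), so replicate numbers were not used to pair arrays. The correlations of control day 7 with KO day 7 ran from 0.02 to 0.08 for the same number. For other numbers they ran from −0.09 to 0.03.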

Additional observations from a re-analysis of the deposited data

Results flagged for a closer look

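Within groups of 4 arrays, 2 of 38 sets of member values had an array far from the others, where chance gives about 1 in 20. Tcf4 1424089_a_at read 2085 on control day 21 replicate 3, with the next array at 531. Id2 1453596_at read 17.96 on control day 21 replicate 2, with the other arrays of that group at the floor of 16. Since those arrays tie, any value above the floor would have been flagged, so the 1 in 20 does not apply to this set.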

How the results depend on the processing

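The count of member probe sets called stayed at 0 in all alternatives for both KO comparisons, control day 21 against day 7 and the difference between days, replicate block included. In fetal liver against adult control it was 1, and 1 with the replicate block. It was 0 with only the arrays compared, with the 3'-to-5' ratio as a covariate and against control day 7 alone, and 2 with quantile normalization, arrays centred on the median, bright probe sets only or the floor share as a covariate. It ran from 0 to 2 when 1 array was left out. Replicate numbers were not used to pair these arrays in the main fit, and the block moved no call of a member. Over all probe sets the fetal count of 1228 became 486 with only the arrays compared, 613 with 1 probe set per gene and 783 against control day 7 alone. The 12 calls of KO day 21 ranged from 0 to 56, the 1 of KO day 7 from 0 to 11, the 20 of control day 21 against day 7 from 5 to 44 and the 1 of the difference between days from 0 to 5.

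Of 41 log2 differences, 26 kept their sign throughout, and 48 of 874 alternative values changed sign, all of results not called. The 41 hold every difference of the brightest probe sets, and those of other probe sets only where the main unadjusted p was under 0.05. All of the latter kept their sign, which that choice favours, so it raises the share of 26 in 41. Every change of sign was on a brightest probe set. The cause of these changes was not tested. In KO day 21, Id1 was −0.019 with quantile normalization, −0.10 centred, −0.21 with the floor share, −0.16 with the 3'-to-5' ratio and −0.17 without control day 21 replicate 3 and control day 7 replicate 1. Tcf3 was −0.086 centred, −0.47 with the 3'-to-5' ratio and −0.15 without that pair, and Tcf4 0.26 without it. In KO day 7, Id3 was 0.23 and Tcf4 −0.13 without that pair. In fetal liver, Id2 was 0.13 with the replicate block and 0.76 against control day 7 alone, Id3 0.030 without the pair and 0.45 against control day 21 alone, and Tcf12 −0.33 against control day 21 alone. For control day 21 against day 7, Tcf3 was 0.073 centred, 0.51 with the 3'-to-5' ratio and 0.35 without the pair, and Tcf4 −0.66 without the pair. For the difference between days, Tcf3 was −0.23 with the 3'-to-5' ratio and −0.072 without the pair, and Tcf4 0.38 without it. That pair, and fetal liver against each control group alone, were chosen after seeing the data.

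With 1 array left out, the values ran as follows. In KO day 21, Id1 ran from −0.17 to 0.33, Tcf3 from −0.15 to 0.34 and Tcf4 from −0.55 to 0.26. In KO day 7, Id2 ran from −0.75 to 0.55, Id3 from −0.49 to 0.23 and Tcf4 from −0.13 to 0.39. In fetal liver, Id2 ran from −0.86 to 0.69, Id3 from −0.38 to 0.29, Tcf3 from −0.17 to 0.67, Tcf4 from −1.29 to 0.047 and Tcf12 from −0.10 to 0.89. For control day 21 against day 7, Tcf3 ran from −0.35 to 0.14 and Tcf4 from −0.37 to 0.44, and for the difference between days Tcf4 ran from −0.72 to 0.094.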
